A study of Mus musculus with 15 samples.

Results

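Mouse mesenchymal stem cells taken through a hepatogenic culture protocol, called HD28, were compared with primary mouse hepatocytes. The comparison was between 6 of the 15 arrays of the series, 3 HD28 and 3 Hepatocyte arrays chosen by their titles. It covered all 18193 genes that could be named on the array, each read by 1 probe set, the one with the highest mean over the 15 arrays. HD28 cells were mesenchymal stem cells kept for 7 days in Iscove's medium with 20 ng/ml hepatocyte growth factor (HGF), 10 ng/ml basic fibroblast growth factor (bFGF) and 0.61 g/L nicotinamide. They were then matured in the same basal medium with 20 ng/ml oncostatin M, 1 µmol/L dexamethasone and an insulin, transferrin and selenium premix, renewed weekly. The Hepatocyte arrays hold primary hepatocytes that were themselves cultured, in a hepatocyte maintenance medium of DMEM/F12 with 10% serum, so the reference is not fresh liver. Undifferentiated mesenchymal stem cells (MSC, 3 arrays, low-glucose DMEM with 10% serum) were used to give a starting level. Their arrays also entered the shared estimate of each gene's spread. So did those of dHD28 cells (de-differentiation, 10% serum) and MLC cells (de-differentiation, 10% serum, TGF-β1 at 10, 5 and 1 ng/ml). The labels name no strain, age or number of separate cultures. The p-values therefore measure the spread between arrays of a group, over all groups of the series, which may be technical. The series as a whole asked about DNA methyltransferases and the reversibility of this fate change.

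Hepatocytes make most plasma proteins, clear drugs and ammonia, and store and release glucose and lipid. Their gene programme is held by a network of transcription factors, among them Hnf4a, the Foxa factors, Hnf1 proteins and Cebpa, which bind one another's genes and those of the secreted proteins. Mesenchymal stem cells are stromal cells rich in fibrillar collagen, and HGF and FGF followed by oncostatin M and dexamethasone, the signals that mature fetal hepatoblasts, are commonly used to turn them towards a hepatocyte-like state.

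The values were log2 intensities, array medians lay between 4.84 and 4.95, and the lower quartiles between 3.43 and 3.70. HD28 replicate 3 stood apart from the other HD28 arrays: over 10 measured hepatocyte marker genes of 12 listed, the mean log2 level was 4.25, 4.52 and 11.2 in HD28 arrays 1, 2 and 3, against 12.97, 12.61 and 12.88 in the Hepatocyte arrays. Albumin alone was at 3.38, 3.74 and 13.80 in the HD28 arrays. Most results are therefore given with all arrays and again without HD28 replicate 3. The promoter windows and the values of some single genes are given only without it. Where HD28 replicate 1 or 2 was left out as well, only 1 HD28 array remained. Counts and calls from such fits rest on that array and on the spread in the other groups, so they are weak. Over 12 stromal markers the HD28 arrays were alike, at 11.28, 11.28 and 11.14, while the Hepatocyte arrays were at 4.88, 6.68 and 6.38. Markers of the other liver cells were also higher in HD28 replicate 3 than in the other HD28 arrays. The mean of 16 Kupffer cell and macrophage markers was 4.02, 4.30 and 5.24 in HD28 and 5.88, 7.48 and 7.70 in the Hepatocyte arrays, and that of 15 endothelial markers was 4.07, 4.35 and 4.90 against 5.57, 6.46 and 6.67. The poly-A spike-in controls fell into 2 levels that crossed the groups, with HD28 replicate 2 (7.86) and Hepatocyte replicate 1 (8.45) high and the other 4 arrays between 5.02 and 5.61. The probe sets for actin at its 3′ and 5′ ends, a sign of RNA quality, differed by 0.29, 0.23 and 0.94 in HD28 arrays 1, 2 and 3 and by 0.66, 1.24 and 1.23 in the Hepatocyte arrays. Those for Gapdh differed by 0.04, -0.08 and 0.43 against 0.01, 0.58 and 0.50. Both signs were higher in HD28 replicate 3 than in the other HD28 arrays. The labels describe the 3 HD28 samples alike, and what part other cells or RNA quality play in its profile or in the group difference was not tested.

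With all arrays, 4825 of 18193 genes (26.5%) changed at least 2-fold at an adjusted p under 0.05 (limma, Benjamini-Hochberg over all genes). Of these, 2786 (15.3%) were higher in HD28 and 2039 (11.2%) were lower. Without HD28 replicate 3 the count was 4948 (27.2%), with 2827 higher (15.5%) and 2121 lower (11.7%). In both fits 4655 genes changed the same way, 2660 up and 1995 down, and 0 changed in opposite directions. The fits share every array but HD28 replicate 3, so most of this agreement is built in. The sizes moved more than the calls: 254 genes were lower by 6 log2 units or more without HD28 replicate 3, and 117 with all arrays, whereas 64 and 65 were higher by that much. At the other end, the 95% interval of the difference lay wholly inside 2-fold for 9026 genes (49.6%) with all arrays and 7945 (43.7%) without replicate 3. Of the 7872 that did so in both fits, 1103 had a mean log2 level above 8. The 3 HD28 and 3 Hepatocyte arrays did not overlap for 10124 genes (55.6%). The median difference over all genes was -0.11 and -0.10. When arrays were centred on 10 housekeeping genes instead, that median moved by -0.46 and -0.49 and the split turned to 1867 higher and 3814 lower with all arrays (32.9% higher, against 57.7%), and to 1862 and 4247 without replicate 3 (30.5%, against 57.1%). Centring on the array median gave 2329 and 2534 with all arrays (47.9% higher, a shift of -0.19) and 2578 and 2403 without replicate 3 (51.8%, a shift of -0.11).

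**Figure D1:**
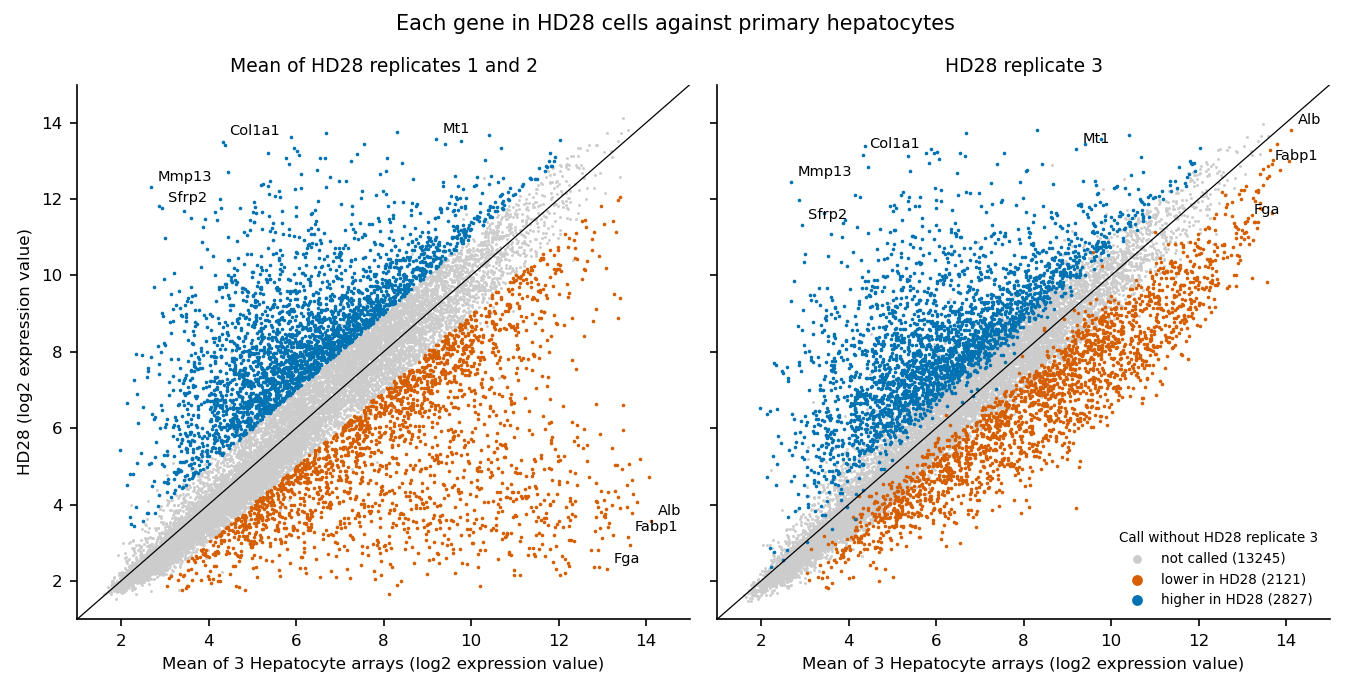
Log2 intensity of each gene in HD28 (y axis; left, mean of replicates 1 and 2; right, replicate 3) against the mean of the 3 Hepatocyte arrays (x axis), 1 point per gene, coloured by the call without HD28 replicate 3 (2827 higher, 2121 lower, the rest not called). Albumin, fibrinogen alpha and liver fatty acid binding protein lie low on the left and close to the diagonal on the right, while Col1a1, Mmp13 and Sfrp2 keep their places.

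The genes furthest below the hepatocyte level without HD28 replicate 3 encode secreted liver proteins and drug-metabolising enzymes. Albumin, the main plasma protein, was at 3.38, 3.74 and 13.80 in HD28 arrays 1, 2 and 3 and at 14.11, 14.10 and 14.15 in the Hepatocyte arrays. HD28 arrays 1 and 2 were low, near the MSC mean of 3.90, replicate 3 was close to the hepatocytes, and the groups did not overlap. The difference was -7.15 ± 1.90 (SE) with all arrays (adjusted p = 0.0079) and -10.56 ± 0.19 without replicate 3, 1506-fold lower. Fga, the fibrinogen alpha chain, was at 2.12, 2.49 and 11.43 against 12.74 to 13.60 in the Hepatocyte arrays, a difference of -7.77 ± 1.70 (adjusted p = 0.0023) and, without replicate 3, of -10.81 ± 0.24. Fabp1, the liver fatty acid binding protein, was at 3.20, 3.09 and 12.87 against 13.62, 13.63 and 13.53. Its difference, like those of the other 2 genes, was set by HD28 arrays 1 and 2 and was -7.20 with all arrays and -10.45 without replicate 3. The other 12 of the 15 lowest genes were Cyp3a11, Mug1, Cyp3a25, Pzp, Apoc3, Ugt2b5, Cyp2d26, Serpina1b, Otc, Akr1c6, Slc2a2 and Ugt2b1. Cyp3a, Ugt2b, Serpina1 and the Mug1 and Pzp genes have near-identical relatives whose RNA these probes may share. For genes that are dim in HD28 the size of a difference is approximate, since background limits the low side, and fewer cells expressing a gene cannot be told apart from less RNA per cell in such bulk samples.

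The genes furthest above the hepatocyte level included several stromal genes. Mmp13, a collagenase, was at 12.49, 12.13 and 12.44 in HD28 and at 2.88, 3.17 and 2.01 in hepatocytes, a difference of 9.67 ± 1.68 with all arrays (adjusted p = 0.00039) and 9.62 ± 1.93 without replicate 3. Col1a1, the main chain of type I collagen, was at 13.61, 13.40 and 13.16 against 3.54, 4.91 and 4.52, a difference of 9.07 ± 0.29 and 9.18 ± 0.32. For both genes the 3 HD28 arrays were alike, replicate 3 included. The collagen cross-linking enzyme Lox (9.04 and 9.05), the mesenchymal cadherin Cdh11 (8.95 without replicate 3) and the secreted Wnt modulator Sfrp2 (8.67 and 8.82) followed. S100a4, Dclk1, Ccn3, Rpl39l, Col5a2, Itgbl1, Gpx3, Enah, Cpe and Dkk3 completed the 15 highest, with 1 of 2 probe sets of Cpe going the opposite way. Mmp13 had a higher signal in HD28 than the MSC mean of 7.33, and Gpx3, the plasma glutathione peroxidase, was at 13.84, 13.39 and 13.31 against an MSC mean of 8.78, while Col1a1 and Sfrp2 were near their MSC means of 13.17 and 12.47 (HD28 against MSC was not tested here).

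The windows upstream of the most strongly lower genes held few CpG. The 250 bases before the annotated start of 3 of the 15 lowest genes (Alb, Fga and Fabp1) and of 2 higher genes (Mt1 and Sfrp2) are shown to let the letters be compared. They are from RefSeq (GRCm38.p6), 5′ to 3′ on the gene's strand, which is the plus strand for all 5. Alb lies at chr5:90460620-90460869, Fga at chr3:83025903-83026152 and Fabp1 at chr6:71199629-71199878. In these 3, capitals mark GTTAAT, the core of HNF1 sites, on either strand (ATTAAC is its reverse). Mt1 lies at chr8:94178839-94179088, with capitals for a glucocorticoid receptor type site, GNACA and TGTNC with any 3 bases between them, and Sfrp2 at chr3:83766071-83766320, with capitals for each CG.
Alb: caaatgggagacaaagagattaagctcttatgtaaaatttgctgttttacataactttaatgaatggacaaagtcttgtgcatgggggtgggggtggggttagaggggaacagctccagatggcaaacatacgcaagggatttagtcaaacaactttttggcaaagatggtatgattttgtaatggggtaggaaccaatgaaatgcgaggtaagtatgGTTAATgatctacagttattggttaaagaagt
Fga: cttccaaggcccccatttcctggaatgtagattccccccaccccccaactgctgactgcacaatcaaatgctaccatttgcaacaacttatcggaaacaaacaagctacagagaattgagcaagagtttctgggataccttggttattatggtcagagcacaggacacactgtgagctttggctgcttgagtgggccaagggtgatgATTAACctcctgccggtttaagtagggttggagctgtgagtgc
Fabp1: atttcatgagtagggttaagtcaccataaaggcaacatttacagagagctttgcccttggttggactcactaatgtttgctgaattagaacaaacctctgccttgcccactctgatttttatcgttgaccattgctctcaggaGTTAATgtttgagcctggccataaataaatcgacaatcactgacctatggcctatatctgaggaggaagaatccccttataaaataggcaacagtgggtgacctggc
Mt1: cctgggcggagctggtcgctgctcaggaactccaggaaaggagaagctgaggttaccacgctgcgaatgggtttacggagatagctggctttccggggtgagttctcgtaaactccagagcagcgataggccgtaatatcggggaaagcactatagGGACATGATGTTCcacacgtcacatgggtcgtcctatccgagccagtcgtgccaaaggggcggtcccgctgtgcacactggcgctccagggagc
Sfrp2: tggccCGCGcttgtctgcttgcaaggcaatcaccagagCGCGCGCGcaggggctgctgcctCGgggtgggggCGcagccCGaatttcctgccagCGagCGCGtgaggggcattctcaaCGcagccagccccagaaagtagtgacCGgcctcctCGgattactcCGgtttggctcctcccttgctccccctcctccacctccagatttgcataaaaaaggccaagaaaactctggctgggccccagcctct

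The 3 liver promoters held 2 CpG each, Mt1 held 17 and Sfrp2 held 16. Of the tested genes, 14452 had such a window, 18109 windows in all with a median of 12 CpG. Windows of genes higher in HD28 (2938) had a median of 15, and those of genes higher by 3 or more (612) had 12, as in tested genes. Those of genes lower by 1 to 3 log2 units without HD28 replicate 3 (1507) had 12. Those lower by 3 to 6 (433) had 6, and those lower by 6 or more (246) had 3. At least 10 CpG were present in 57.4% of windows of tested genes, 71.1% of those of higher genes, 60.8% of those higher by 3 or more and 14.2% of those lower by 6 or more. GTTAAT, read on both strands, was in 4.89% of windows of tested genes, 3.85% of those of higher genes and 16.3% of those lower by 6 or more, against 6.43% of all 32851 promoter windows in RefSeq. TTGCNNAA, a C/EBP type site, was in 8.34%, 7.08% and 19.9%, and 9.56% of all windows. TATAAA, the TATA box, which is no liver factor's site, was in 8.81%, 7.39% and 23.6%, in 11.6% of windows of genes higher by 3 or more, and in 12.4% of all. Windows were not split by their CpG count, so what part base composition plays in these shares was not tested. The glucocorticoid receptor type site was in 0.304% of windows of tested genes 0.34% of those of higher genes and 0.817% of those higher by 3 or more (5 windows of 612). These promoters and words were chosen after the values were seen, genes with several starts gave several windows, and a match is only a run of letters.

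**Figure D2:**
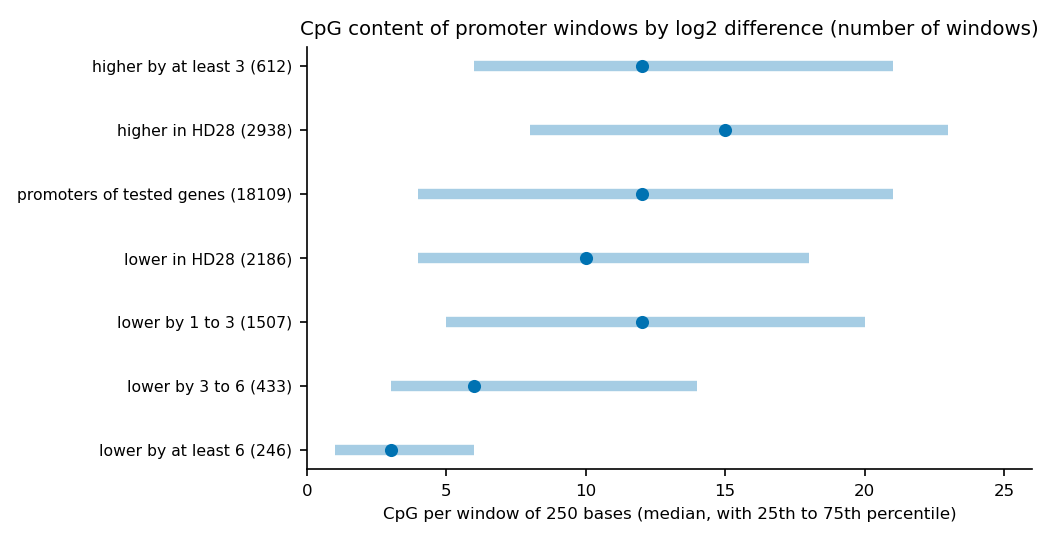
CpG dinucleotides per 250-base upstream window (x axis; points are medians and bars run from the 25th to the 75th percentile) for tested genes and for genes higher or lower in HD28 without HD28 replicate 3, by size of the log2 difference (y axis, 1 row per class, with the number of windows). The median was 12 in tested genes and in genes higher by 3 or more, and 3 in genes lower by 6 or more.

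Among plasma proteins, most carriers, clotting factors and apolipoproteins were lower in HD28. Of 28 measured carrier proteins (34 listed), 23 were lower and 0 higher with all arrays, and 24 and 0 without HD28 replicate 3, against 11.2% and 11.7% of all genes lower. The list's median was 7.55 and 7.22 log2 units under the Hepatocyte mean in HD28 arrays 1 and 2 (differences of -7.55 and -7.22) and -1.77 in array 3. Ahsg (fetuin A) differed by -6.23 and -8.28, and Ambp, a carrier and protease inhibitor precursor, by -6.76 and -9.30. All 19 measured liver clotting and fibrinolysis genes were lower in both fits, with medians of -5.99 and -7.56. They include Fgb (-6.81 and -9.39), Fgg (-6.87 and -9.53) and the antithrombin gene Serpinc1 (-6.71 and -9.24). Of 20 apolipoprotein and lipoprotein assembly genes, 17 were lower and 2 higher with all arrays, and 16 and 2 without replicate 3. Apoa1, the main protein of HDL, was at 5.12, 5.29 and 12.77 against 13.81, 13.84 and 13.95, and Apob differed by -6.78 and -8.75. Using only the arrays of low spike-in signal (2 against 2, chosen after seeing the data), fewer of these were lower with HD28 replicate 3 kept: 14 carriers and 12 clotting genes.

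The higher members of the lipoprotein list were Apod and Pltp. Apod, a lipocalin that carries small lipids, was at 12.31, 12.62 and 12.74 in HD28 and 5.48, 5.23 and 5.46 in hepatocytes, 7.16 and 7.07 log2 units higher (134-fold without replicate 3). Pltp, the phospholipid transfer protein, was higher by 2.47 and 2.43, but by 1.45 without HD28 replicate 3 and Hepatocyte replicate 1, and its call without HD28 replicate 3 was lost when HD28 replicate 2 was also left out. That left 1 higher member of the list. Apoe, chosen after its values were seen, was graded over the HD28 arrays, at 4.50, 8.72 and 12.36 against 13.43, 13.52 and 13.45, so HD28 arrays 1 and 2 were themselves far apart.

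**Figure D3:**
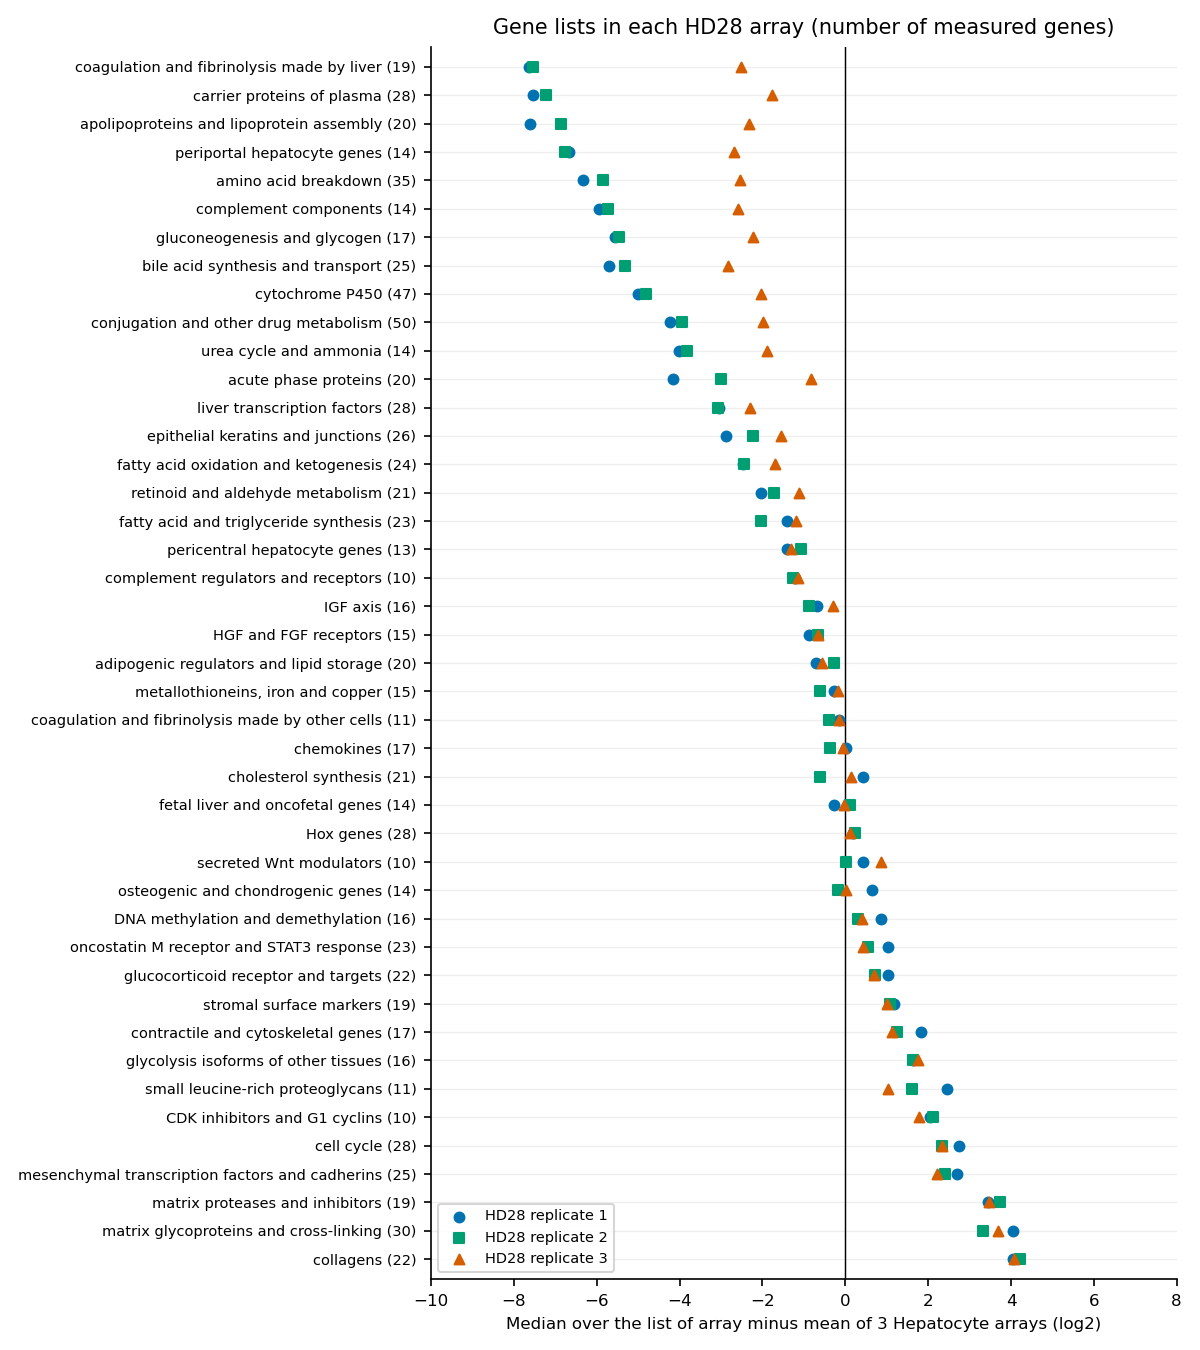
Median log2 difference of each gene list from the Hepatocyte mean (x axis) for HD28 replicates 1, 2 and 3, 1 row per list (y axis). In most lists of secreted liver proteins and liver enzymes replicate 3 lies to the right of the other arrays, as for carrier proteins (-7.55, -7.22 and -1.77), and for collagens and matrix proteases the 3 arrays lie together.

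Complement and acute phase genes were less uniform. Their counts are to be set beside 11.2% and 11.7% of all genes lower and 15.3% and 15.5% higher. Of 14 complement components, 11 were lower and 1 higher in both fits, with medians of -4.87 and -5.80. C9, a pore-forming component, differed by -6.85 and -8.98, Hc (C5) by -6.58 and -8.49, and the lectin Mbl2 by -6.99 and -9.17. The higher member was Masp1, a lectin pathway protease, at 10.26, 9.96 and 10.16 against 7.21, 7.61 and 7.99, a difference of 2.52 and 2.51, although 1 of its probe sets went the opposite way. Of 10 complement regulators, 5 were lower in each fit, Cfi (-6.64 and -8.80) the most, and 0 were higher, 1 with all arrays but without Hepatocyte replicate 3. Of 20 acute phase genes, 10 were lower and 1 higher with all arrays, and 11 and 2 without HD28 replicate 3. The list's median was -4.17 in HD28 array 1 and -0.83 in array 3. Its lower count with all arrays was 6 on the low spike-in arrays alone.

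Serpina3n, a protease inhibitor of the acute phase, was higher in HD28, at 13.16, 12.87 and 12.30 against 10.99, 9.78 and 10.20, a difference of 2.45 and 2.69. The MSC mean was 4.75, and probes for the Serpina3 genes may share their RNA. The second higher member without replicate 3, Il1rn, an interleukin-1 antagonist, rested on HD28 replicate 1 (10.21, 7.48 and 6.57 against 5.94, 6.27 and 6.51). Its difference of 2.60 became 1.24 without that array and the call was lost. Haptoglobin, Hp, was at 9.63, 10.77 and 12.35 against 13.08, 12.85 and 13.29. It did not pass with all arrays (-2.15, adjusted p = 0.084) and passed without replicate 3 (-2.87, adjusted p = 0.036), but the call was lost on leaving out any of the 5 arrays. Among genes chosen after their values were seen, several secreted proteins had like levels in both groups. The lipopolysaccharide binding protein Lbp was at 9.19, 10.14 and 9.38 in HD28 and 9.94, 9.41 and 10.42 in hepatocytes, with an MSC mean of 4.79. Its difference without replicate 3 was -0.26 with a 95% interval of -1.56 to 1.04, so the data do not settle whether it differed. Selenop, the selenium carrier, was at 13.84, 13.79 and 13.66 against 13.60, 13.58 and 13.59 with an MSC mean of 9.83 (interval -1.91 to 2.37). The complement protease C1s1 was at 10.88, 11.65 and 11.78 against 11.02, 11.16 and 10.82 with an MSC mean of 8.07 (interval -2.17 to 2.70). In these 3 genes each HD28 array was within 1 log2 unit of the Hepatocyte mean, but the intervals were wide. They rest on the spread in all groups, for C1s1 a standard deviation of 2.24 in MSC and 0.17 in Hepatocyte arrays. Ceruloplasmin, Cp, was at 10.98, 12.29 and 12.26 against 12.13, 12.63 and 12.55, but its 8 probe sets disagreed, with 1 and 2 of them past 2-fold in opposite directions.

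Most genes of drug and intermediary metabolism were lower in HD28 than in hepatocytes. The MSC arrays were as far below, with a median over P450 genes of -4.85 against -5.01 and -4.82 in HD28 arrays 1 and 2. With all arrays and without HD28 replicate 3, 11.2% and 11.7% of all genes were lower and 15.3% and 15.5% higher. Of 47 cytochrome P450 genes, 37 were lower and 2 higher with all arrays and 39 and 2 without HD28 replicate 3, with medians of -4.23 and -4.89. The higher ones were Cyp1b1 (4.97 and 4.94), a P450 of stromal tissues, and Cyp20a1 (2.10 and 1.99). Cyp2e1, which oxidises ethanol and small solvents, was at 4.26, 4.30 and 13.02 against 13.68, 13.70 and 13.75. Cyp1a2 was at 3.13, 3.38 and 8.54 against 10.96, 10.62 and 11.15, a difference of -5.89 and -7.65. Replicate 3 was thus near the hepatocytes for Cyp2e1 and less so for Cyp1a2. Of 50 conjugation genes, 37 were lower and 4 higher in both fits, the higher ones including the glutathione transferases Gstm5 (1.69 and 1.86) and Mgst3 (1.13 and 1.29). Of 14 urea cycle and nitrogen genes, 12 and 11 were lower, with Cps1, which fixes ammonia, at 3.61, 4.20 and 11.75 against 13.40, 13.34 and 13.44, and the next enzyme Otc at -7.70 and -9.87. All 35 measured amino acid breakdown genes were lower in both fits, with medians of -4.94 and -5.97, Bhmt (-6.75 and -9.15), Mat1a (-6.79 and -9.02) and Tdo2 (-6.11 and -7.86) among them. Of 25 bile acid genes 22 were lower in both fits, among them the sodium taurocholate carrier Slc10a1 (-6.34 and -8.06) and the bile salt export pump Abcb11 (-5.41 and -6.72). With all arrays 1 of them was higher, and 0 when HD28 replicate 1, 2 or 3 or Hepatocyte replicate 1 or 3 was left out. Without HD28 replicate 3, 0 were higher, and 1 when Hepatocyte replicate 2 was also left out.

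In lipid metabolism, 21 of 24 fatty acid oxidation genes were lower and 1 higher with all arrays, and 22 and 1 without HD28 replicate 3. The higher one was Pdk4. Ehhadh, a peroxisomal enzyme, differed by -5.67 and -7.08. Of 23 fatty acid and triglyceride synthesis genes, 14 and 15 were lower and 1 was higher. The higher one was Scd2, the desaturase of brain and stroma, at 12.88, 11.87 and 12.11 against 3.92, 5.82 and 5.85, a difference of 7.09 and 7.17. Cholesterol synthesis had medians of -0.03 and -0.14 over 21 genes, and of 0.43, -0.61 and 0.14 in HD28 arrays 1, 2 and 3. Only 3 of the 21 had an interval inside 2-fold in each fit, against 49.6% and 43.7% of all genes. Of the 21, 2 were higher and 5 lower in both fits, against 15.3% and 11.2% of all genes with all arrays. Ebp, Msmo1 and Fdft1 had intervals inside 2-fold without replicate 3, with differences of 0.44, -0.05 and -0.14. The higher member Sqle, squalene epoxidase, was at 10.86, 9.39 and 10.28 against 6.21, 8.48 and 9.64. It differed by 2.07 and 2.02, and by 1.12 and 1.07 without Hepatocyte replicate 1. Its call was lost without HD28 replicate 1 in both fits. Without HD28 replicate 1 the higher count was 1 with all other arrays and 0 when replicate 3 was left out too, and without replicate 3 it was also 1 without Hepatocyte replicate 1 or 2.

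Genes that mark the zones of the liver lobule were also compared. Their counts are to be set beside the 11.2% and 11.7% of all genes that were lower. Of 14 periportal genes, 13 were lower and 0 higher in both fits, with medians of -5.74 and -6.76, for example Cyp2f2 (-6.25 and -7.73) and Pigr (-6.86 and -8.43). Of 13 pericentral genes, 8 and 7 were lower and 1 was higher, Axin2 (2.37 in both fits), a feedback target of Wnt signalling. Glul, glutamine synthetase, which marks the cells around the central vein, was at 9.99, 10.12 and 10.42 against 10.04, 10.99 and 11.44 with an MSC mean of 7.89, and its difference of -0.65 and -0.77 did not pass. The difference between the zonal lists was not tested. Of 14 fetal liver genes, 5 were higher in both fits and 0 or 1 lower, against 15.3% and 15.5% of all genes higher. The higher ones were Sox4 (5.13 and 5.27), Cd24a (5.01 and 4.95, the latter lost without HD28 replicate 1), Igf2, Mest and Hmga2 (3.36 and 3.32). Mest was higher by 3.66 and 3.86, and by 2.39 without HD28 replicates 1 and 3. The fetal plasma protein Afp was at 4.53 or less in the HD28 arrays against 5.03, 5.43 and 4.97 and passed only without HD28 replicate 3 (-1.04), a call lost without HD28 replicate 1 or Hepatocyte replicate 2. Gpc3 and Dlk1, markers of hepatoblasts, had differences of -0.06 and 0.25 with intervals inside 2-fold.

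For several enzymes the liver isoform was lower and the isoform of other tissues was higher. Pck1, the cytosolic enzyme of gluconeogenesis, was at 2.98, 3.32 and 7.09 against 11.44, 10.05 and 10.81 (-6.30 and -7.61), whereas the mitochondrial Pck2 was higher by 2.95 and 3.15. The liver glycogen synthase Gys2 differed by -5.62 and -6.80 and the muscle form Gys1 by 2.18 and 2.20. Of 16 glycolysis isoforms of other tissues, 9 were higher and 2 lower in both fits, with medians of 1.73 and 1.69. Pkm, the pyruvate kinase of dividing and muscle cells, was at 12.68, 12.49 and 12.17 against 5.11, 8.38 and 6.81 (5.68 and 5.82), and Hk1, a hexokinase of most tissues, was higher by 4.83 and 4.88. Both were lowest in Hepatocyte replicate 1, which was also the lowest in stromal markers (4.88 against 6.68 and 6.38). Pklr, the liver pyruvate kinase, and Scd1 were chosen after their values were seen, as were Aldoa and Apoe in the same plot. Pklr differed by -1.45 and -1.50. Scd1 differed by -1.88 and -2.42, a call lost without HD28 replicate 2 in both fits and, with all arrays, without Hepatocyte replicate 2 or 3. In the gluconeogenesis and glycogen list as a whole, 14 of 17 genes were lower and 2 higher in both fits. This count and that of the glycolysis list compare with 15.3% and 15.5% of all genes higher and 11.2% and 11.7% lower. The isoforms compared are different probes, so only their differences, not their levels, were set side by side.

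**Figure D4:**
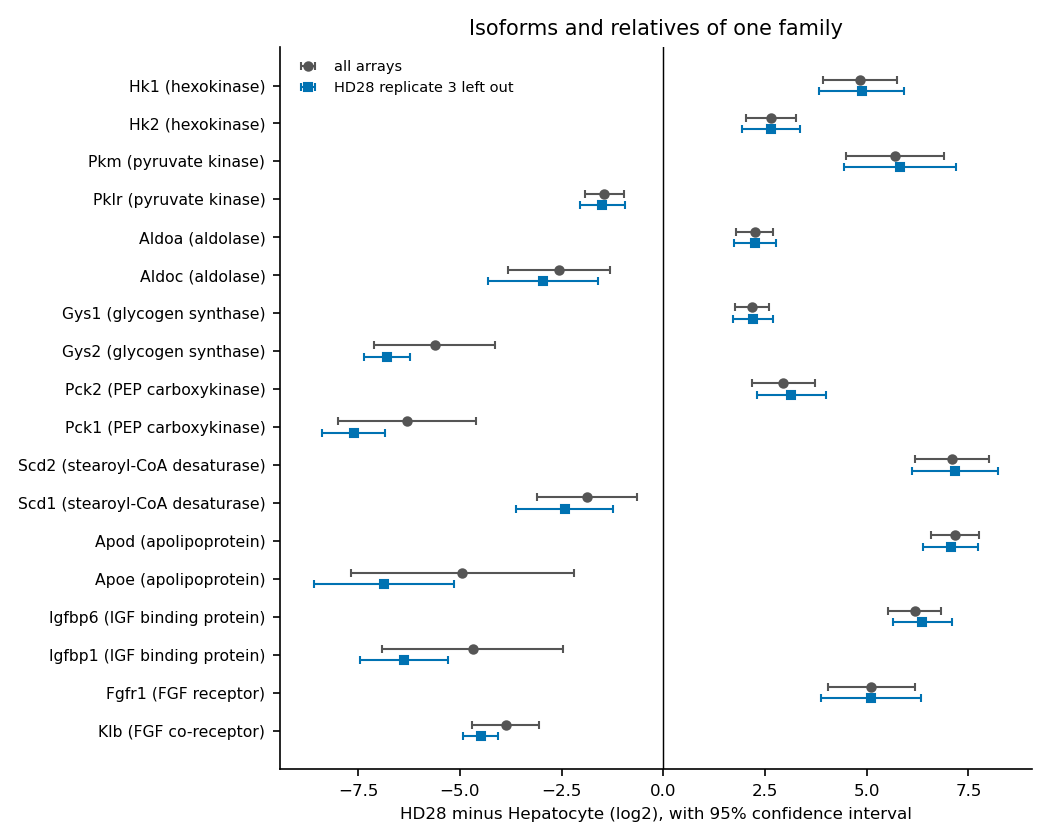
Log2 difference, HD28 minus Hepatocyte (x axis), with 95% intervals, for 18 genes (y axis), with all arrays and without HD28 replicate 3. Most are isoforms or relatives of one another. Apod, a lipocalin, and Apoe are not isoforms, nor are the receptor Fgfr1 and the coreceptor Klb. Hk1, Hk2, Pkm, Aldoa, Gys1, Pck2, Scd2, Apod, Igfbp6 and Fgfr1 lie above 0 and Pklr, Aldoc, Gys2, Pck1, Scd1, Apoe, Igfbp1 and Klb below it.

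Of 28 measured liver transcription factors (31 listed), 22 were lower and 0 higher in both fits, against 11.2% and 11.7% of all genes lower. The list's medians were -2.92 and -3.22. The medians by array were -3.05, -3.08 and -2.30, so HD28 replicate 3 lay closer to the other HD28 arrays here than for secreted proteins. Its distance from hepatocytes was much the same as for liver clotting genes (-2.53) and apolipoproteins (-2.32), and larger than for carriers (-1.77). Hnf4a, the central nuclear receptor of the network, was at 4.92, 5.13 and 8.58 against 11.19, 10.68 and 10.88, a difference of -4.71 ± 0.69 and -5.89 ± 0.24, with all 4 probe sets past 2-fold the same way. Hhex, needed for liver budding, was at 4.14, 4.24 and 7.32 against 10.79, 11.31 and 10.33 (-5.58 and -6.63). Foxa1 (-4.01 and -4.73), Foxa2 (-3.16 and -3.58) and Foxa3 (-4.81 and -5.50) were all lower, as were the bile acid receptor Nr1h4 (-3.93 and -4.34) and Ppara (-4.74 and -5.42), the regulator of fatty acid oxidation. Onecut1 was at 3.91, 4.15 and 4.23 against 8.30, 5.67 and 5.51, and its difference of -2.40 and -2.46 became -1.49 and -1.56 without Hepatocyte replicate 1. Cebpa, which promotes the mature state, was at 8.14, 7.52 and 8.91 against 11.07, 11.52 and 10.99 (-3.36 without replicate 3). Its relative Cebpb was at 10.66, 10.51 and 10.45 against 10.85, 10.18 and 10.55, and the difference of 0.01 and 0.06 had an interval inside 2-fold. Gata6 (-0.15 in both fits) and Atf5 (-0.10 and -0.25) were also inside 2-fold, and Bhlhe40 (0.30 and 0.27), Tbx3 (-0.39 in both) and Thrb (-0.87 and -0.92) were not called.

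The culture of HD28 held dexamethasone, and genes known to respond to glucocorticoids did not move one way. Of 22 members measured, including the receptor, 10 were higher and 5 lower in both fits, with medians of 0.72 and 0.87, and 10 and 8 with all arrays when centred on housekeeping genes. Among all genes 15.3% and 15.5% were higher and 11.2% and 11.7% lower. Fkbp5, a chaperone partner induced by the receptor, was at 11.64, 11.79 and 11.53 against 9.11, 7.81 and 8.93 (3.03 and 3.10). Tsc22d3 (GILZ) was at 11.46 or above in the HD28 arrays against 9.71, 8.11 and 10.02 (2.49 and 2.45). Both were higher in every HD28 array, and in each of them replicate 3 was like the others. The metallothionein Mt1, whose upstream sequence is printed with the promoters, was at 13.57, 13.58 and 13.30 against 8.61, 9.67 and 9.34 (4.28 and 4.37), and Mt2 was higher by 4.88 and 4.98. Pdk4, which restrains glucose oxidation, was at 12.17, 12.36 and 12.30 against 3.57, 6.64 and 7.69 (6.31 and 6.30). Sgk1 (3.58 and 3.69), Anxa1 (6.27 and 6.29), Ddit4 (3.50 and 3.39), Cebpd (3.49 and 3.50) and Hif3a (1.67 and 1.65) were the other higher members. The 5 lower members were Tat, Pck1, Hsd11b1, Errfi1 and Klf15. Tat, a tyrosine-degrading enzyme and a classic hepatocyte target of the hormone, was at 4.25, 4.81 and 9.84 against 12.47, 11.08 and 12.49 (-5.71 and -7.49). Hsd11b1, which regenerates active glucocorticoid, was graded over the HD28 arrays, at 5.48, 7.79 and 9.73 against 12.93, 12.85 and 12.77. Klf15 differed by -2.75 and -3.19, and by -2.03 when HD28 replicates 1 and 3 were left out. The receptor Nr3c1 (-0.78 and -0.74), Klf9 (-0.92 and -0.97), Glul, Per1, Zbtb16, Dusp1 and Angptl4 were not called.

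**Figure D5:**
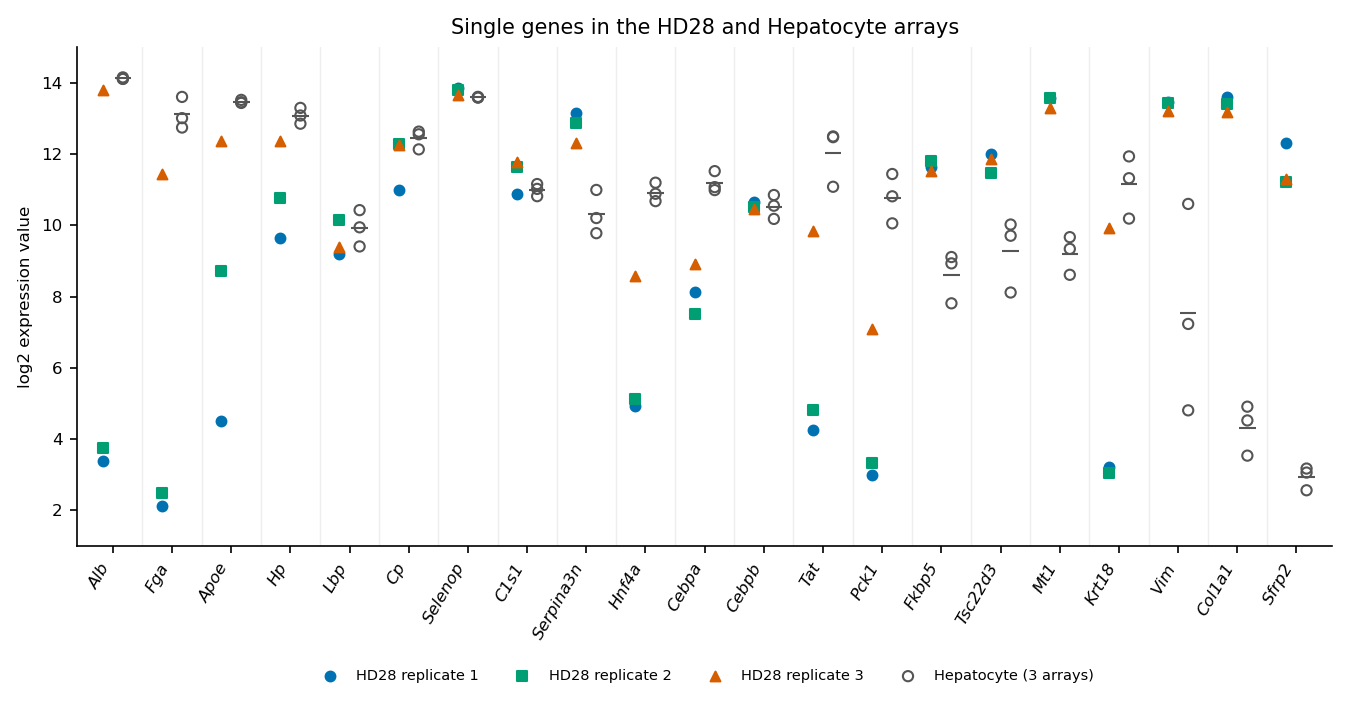
Log2 intensity (y axis) of 21 single genes in each HD28 and Hepatocyte array (1 point per array, with a marker for each HD28 replicate and a line at the Hepatocyte mean), 1 column per gene (x axis). Alb and Fga are high only in HD28 replicate 3 among the HD28 arrays, Fkbp5, Mt1, Vim and Col1a1 are high in all 3, and the HD28 and Hepatocyte arrays of Cebpb overlap. Apoe, Lbp, Cp, Selenop and C1s1 were chosen after their values were seen.

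Oncostatin M acts through a receptor of Osmr and Il6st (gp130) and the factor Stat3. The receptor chain Osmr was at 10.75, 10.27 and 10.48 in HD28 and 4.10, 5.29 and 6.23 in hepatocytes (5.30 and 5.31), and Il6st was higher by 1.60 and 1.81. Of 23 members of the pathway and its targets, 8 were higher and 1 lower with all arrays, and 8 and 2 without HD28 replicate 3. Timp1, a metalloprotease inhibitor, was at 11.80, 11.73 and 11.22 against 4.47, 5.03 and 4.64 (6.87 and 7.05), and the feedback inhibitor Socs3 was higher by 2.67 and 2.73. Both were above every Hepatocyte array in all HD28 arrays. The lower members without replicate 3 were Pim3 (-1.30 and -1.48) and Hp, whose call rested on every array, so the lower count was 1 on leaving out any of the 5. Centred on housekeeping genes with all arrays, 6 were higher and 3 lower. Of 15 HGF and FGF receptors and related genes, 3 were higher and 6 lower in both fits. Over all genes 15.3% were higher and 11.2% lower with all arrays. Housekeeping centring gave 3 higher and 9 lower members with all arrays. Fgfr1, a receptor for bFGF, was higher by 5.11 and 5.10 and Fgfr2 by 1.69 and 1.82. Klb, the coreceptor for endocrine FGFs in liver, differed by -3.88 and -4.49, the HGF activator Hgfac by -5.11 and -6.17 and Fgf1 by -4.56 and -5.07.

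Of 16 genes of the IGF axis, 5 were higher and 5 lower with all arrays, and 5 and 6 without HD28 replicate 3, against 15.3% and 11.2%, and 15.5% and 11.7%, of all genes. The lower count was 3 without Hepatocyte replicate 2 in either fit, and also 3 without HD28 replicates 2 and 3. Igfbp6 was at 11.45, 11.35 and 10.83 against 4.33, 5.28 and 5.49 (6.18 and 6.37), while Igfbp1, a binding protein made mainly by hepatocytes, was at 2.86, 3.34 and 8.14 against 8.42, 9.11 and 10.87 (-4.68 and -6.36). Irs1, an insulin receptor substrate, was higher by 1.85 and 1.89 and the receptor Insr differed by -1.54 and -1.74. The growth factor gene Igf2 was higher by 3.92 without HD28 replicate 3 and by 1.97 when replicate 2 was left out as well.

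Most of the measured collagens, other matrix proteins and matrix proteases were higher in HD28 than in hepatocytes. Of 22 collagens, 15 were higher and 2 lower with all arrays and 14 and 3 without HD28 replicate 3, with medians of 4.10 and 4.16. Postn (periostin) was at 13.28, 13.40 and 13.20 against 3.86, 6.86 and 7.13 (7.35 and 7.39). Of 30 other matrix proteins, 23 and 22 were higher and 1 lower, among them Mgp (6.87 and 6.89) and Thbs1 (6.53 and 6.73). Of 19 matrix proteases and inhibitors, 15 were higher and 0 lower in both fits, with Mmp2, a gelatinase, at 12.18, 12.60 and 12.19 against 5.49, 5.15 and 5.10. Of 11 small leucine-rich proteoglycans, 6 were higher in both fits, but 2 without HD28 replicates 1 and 3. Of 10 secreted Wnt modulators, 4 were higher and 0 lower in both fits. Besides Sfrp2 and Dkk3 these were Sfrp1 (4.44 and 4.49) and Wif1, which was at 8.26, 2.61 and 6.52 in HD28 and rested on replicates 1 and 3 (3.46 without replicate 3, and 0.64 without both). Omd was higher by 4.55 and 4.23 and Aspn by 4.63 and 4.55. These counts compare with 15.3% and 15.5% of all genes higher. Hepatocyte replicate 1 had the lowest stromal markers, but leaving it out kept the counts for collagens, matrix proteins, proteases and stromal markers within 1.5 times. Vimentin (Vim) was at 4.81, 10.60 and 7.23 in the Hepatocyte arrays and 13.47, 13.43 and 13.21 in HD28. Over the stromal markers 10 of 12 were higher and 0 lower in both fits, the Hepatocyte arrays spanning mean levels of 4.88 to 6.68, and what part stromal cells in the hepatocyte cultures play was not tested.

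Of 17 contractile and cytoskeletal genes, 10 were higher in both fits and 0 or 1 lower (0 without HD28 replicates 2 and 3). Acta2, smooth muscle actin, was at 12.39, 12.56 and 11.66 against 5.23, 8.66 and 7.51, and Tpm1 was higher by 3.16 and 3.25. Of 25 mesenchymal transcription factors, 16 were higher and 0 lower in both fits, including Prrx1 (6.60 and 6.56) and Twist1 (5.61 in both), which specify mesenchyme. Of 19 stromal surface antigens 9 and 10 were higher and 4 lower in each fit, 2 lower without Hepatocyte replicate 3 in either fit. Cd34 was higher by 2.86 and 2.47 and Vcam1 by 2.46 and 2.43. The hyaluronan receptor Cd44 was higher by 2.56 and 2.46, but by 1.39 without HD28 replicate 3 and Hepatocyte replicate 1. Eng (endoglin) differed by -1.36 and -1.43 and Thy1 by -0.71 in both fits, which did not pass. Of 26 epithelial keratins and junction genes, 19 were lower and 0 higher in both fits. Krt18, the simple epithelial keratin of hepatocytes, was at 3.22, 3.06 and 9.93 against 10.19, 11.93 and 11.32, and Krt8 differed by -4.79 and -6.51 and Cdh1 (E-cadherin) by -4.31 and -5.29. The gap junction gene Gjb2 differed by -5.72 and -7.05. Epcam (0.49 and 0.52) was not called. These list counts compare with 15.3% and 15.5% of all genes higher and 11.2% and 11.7% lower.

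Dividing-cell genes were higher in HD28 than in hepatocytes. Of 28 cell cycle genes, 26 were higher with all arrays and 24 without HD28 replicate 3, 0 lower, with medians of 2.47 and 2.54, and the latter count ranged from 18 to 26 on leaving out 1 more array. Top2a, needed to untangle chromosomes, was at 9.11, 8.40 and 8.25 against 3.83, 5.40 and 3.49, with an MSC mean of 10.46, and Birc5 at 8.11, 7.13 and 7.66 against 3.25, 5.01 and 2.71, with an MSC mean of 10.21. In both, HD28 lay between hepatocytes and MSC, a position that was not tested against MSC. Of 10 CDK inhibitors and G1 cyclins, 7 were higher and 0 lower in both fits, Cdkn1a (p21, 3.88 and 3.82), Cdkn1b (p27, 1.63 and 1.73) and Ccnd1 (2.43 and 2.44) among them. The counts of both lists compare with 15.3% and 15.5% of all genes higher.

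DNA methylation genes, the subject of the series, changed in part. Of 16 measured (18 listed), 5 were higher in both fits and 0 or 1 lower, against 15.3% and 15.5% of all genes higher. Dnmt1, the maintenance methyltransferase, was at 7.63, 7.72 and 7.60 against 5.87, 6.62 and 6.11, with an MSC mean of 9.24. The HD28 arrays were tight and above the hepatocytes, by 1.45 and 1.47, although without replicate 3 the call was lost when HD28 replicate 1 or 2 or Hepatocyte replicate 1 or 3 was left out. Uhrf1, which guides Dnmt1 to hemimethylated DNA, was at 7.88, 7.08 and 7.62 against 4.06, 5.52 and 4.48 with an MSC mean of 9.92, a difference of 2.84 and 2.79. Its relative Uhrf2 was higher by 1.08 and 1.05, a call lost without HD28 replicate 1 or Hepatocyte replicate 1 in both fits and, when replicate 3 was left out, without Hepatocyte replicate 2 or 3. The stress genes Gadd45b (2.07 and 2.27) and Gadd45g (2.22 and 2.51) were higher, the latter without replicate 3 only while HD28 replicate 1 was kept. Gadd45a was at 8.08, 9.29 and 8.74 against 6.56, 7.78 and 5.31 and was not called. The de novo enzymes Dnmt3a (-0.54 and -0.64) and Dnmt3b (-0.15 and -0.19) were not called, nor were Dnmt3l, Tet1, Tet2 (0.01 and -0.04), Tet3, Mbd2, Mbd3 and Mbd4. Mbd1, a methyl-CpG binding protein, passed only without replicate 3 (-1.13), a difference of -0.71 without Hepatocyte replicate 3, and its call was also lost without HD28 replicate 1 or 2. With HD28 replicate 3 left out, the higher count was 2 without HD28 replicate 1 as well and 3 without Hepatocyte replicate 1. The lower count, 0 with all arrays, was 1 on leaving out Hepatocyte replicate 1 or 2. Centred on housekeeping genes, with all arrays, 3 were higher and 2 lower.

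Most Kupffer cell and endothelial markers were lower in HD28 than in the hepatocyte cultures, and few cholangiocyte or lymphocyte markers changed. Of 16 Kupffer cell and macrophage markers, 14 were lower and 0 higher in both fits, and of 15 liver endothelial markers 11 and 12 were lower. Over all genes 11.2% and 11.7% were lower and 15.3% and 15.5% higher, the shares to set beside each of these marker counts. Of 11 stellate cell markers 6 were lower and 0 higher in each fit (1 higher with all arrays but Hepatocyte replicate 3 or HD28 replicate 2), and of 8 cholangiocyte markers 1 was higher and 2 lower in each fit, the lower count being 1 without Hepatocyte replicate 2 or 3 in either fit, or without HD28 replicates 1 and 3. Lymphocyte markers (8 measured) gave 0 calls with all arrays and 1 lower without replicate 3. That lower count was 2 without Hepatocyte replicate 1 in both fits. It was 0 when HD28 replicate 2 or Hepatocyte replicate 2 or 3 was left out with HD28 replicate 3. The Kupffer medians were -3.03, -2.78 and -1.98 in HD28 arrays 1, 2 and 3, so replicate 3 was nearer the hepatocyte cultures for these genes too. The complement subunit C1qb was at 2.83, 2.87 and 4.98 in the HD28 arrays and 6.90, 7.84 and 8.93 in the Hepatocyte arrays, and the macrophage receptor Vsig4 at 3.45, 3.73 and 6.16 against 7.86, 9.14 and 9.67.

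HD28 replicate 3 was described further without a test. The genes were chosen by the fit without it, or by low levels in HD28 arrays 1 and 2. Part of its excess over those arrays therefore comes with the choice. Over the 254 genes lower by 6 or more, the level of replicate 3 exceeded the mean of replicates 1 and 2 by 2.33 to 10.35 (median 4.85), by 3 or more in 245 of them. Its median distance from hepatocytes there was -2.65, close to the -2.56 of the 421 genes lower by 3 to 6, where its excess had a median of 1.66. Over the 1446 genes lower by 1 to 3 the excess was 0.36 and the distance -1.28. When genes at under 5 in HD28 arrays 1 and 2 were binned by hepatocyte level, the median distance of replicate 3 was -1.92 at 6 to 8 (268 genes), -2.78 at 8 to 10 (156), -2.85 at 10 to 12 (139) and -2.04 at 12 to 15 (67), where replicates 1 and 2 were at -9.27 and -9.10. Within these bins single genes spread widely, from -3.22 to -0.70 between the 5th and 95th percentiles at 12 to 15. The 15 genes in which it exceeded the other arrays most were Cyp3a11, Alb, Fabp1, Serpina1c, Serpina1b, Fga, Cyp2e1, Rbp4, Pzp, Apoa2, Cyp2c29, Mup3, Mug1, Acaa1b and Akr1c6. Among the 2827 higher genes its median difference from the mean of replicates 1 and 2 was -0.17, and it was above both by 1 or more in 1 gene, against 598 (28.2%) of the 2121 lower genes.

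Positional, metal and retinoid genes were compared as well. Of 28 Hox genes, which record position along the body, 6 were higher and 0 lower in both fits, against 15.3% and 15.5% of all genes higher (2 lower without HD28 replicates 2 and 3). Hoxc10 was at 8.68, 8.92 and 9.09 against 4.40, 3.17 and 2.88, Hoxa9 was higher by 5.10 and 5.09 and Hoxa10 by 4.77 in both fits. Hoxc8, Hoxc5 and Hoxc4 were higher by 1.31 to 2.59 without replicate 3, Hoxc5 by 1.93 and by 1.28 without HD28 replicates 1 and 3. Of 15 metallothionein, iron and copper genes, 4 were higher and 4 lower in both fits, against 15.3% and 11.2% of all genes with all arrays. Besides Mt1 and Mt2, the higher ones were the copper pump Atp7a (2.94 and 3.11) and the iron importer Slc11a2 (1.75 and 1.95). The iron exporter Slc40a1 (ferroportin) differed by -5.57 and -6.61 and the liver iron sensor Tfr2 by -3.63 and -4.26. Hamp, the iron hormone hepcidin, was at 4.38, 4.28 and 8.16 against 12.69, 12.87 and 7.34. HD28 replicate 3 was above Hepatocyte replicate 3 here, so the groups overlapped. Of 21 retinoid and aldehyde genes, 2 were higher and 13 or 12 lower. The retinol carrier Rbp4 was at 3.98, 3.87 and 12.55 against 13.57, 13.58 and 13.53, and Crabp2, which carries retinoic acid to the nucleus, was higher by 3.99 and 4.03. Of 11 clotting genes made by other cells, 3 were higher and 2 lower in both fits, against 15.3% and 11.2% of all genes with all arrays. The plasminogen activator Plat was higher by 3.87 and 4.04 and tissue factor, F3, by 3.15 and 3.22. The calls of F3 and Procr were lost without HD28 replicates 1 and 3, which left 1 higher member.

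The genes of highest signal with an interval inside 2-fold in both fits were Fth1, Eef1a1, Tpt1, Actb, Cox6a1, B2m, Rps29, Rps2, Rpl38 and Akr1a1. For Actb this holds for the probe set used, and its other set was at least 2-fold lower in HD28 without replicate 3. Eef1a1, a translation factor, was at 13.75, 13.71 and 13.64 against 13.43, 13.43 and 13.43, B2m, the light chain of class I antigen-presenting molecules, at 12.87, 13.34 and 13.16 against 13.15, 13.36 and 13.15, and Cox6a1, a respiratory chain subunit, at 13.17, 13.35 and 13.26 against 13.23, 13.12 and 13.23. The highest value on any array was 14.15, so these genes read near the top of the range. Of the lineages that stromal cells can enter, 4 of 14 osteogenic genes and 1 of 20 adipogenic genes were higher in both fits, with 8 and 7 adipogenic genes lower. Over all genes 15.3% and 15.5% were higher and 11.2% and 11.7% lower. With replicate 3 left out, the adipogenic higher count was 0 without HD28 replicate 1. The bone matrix gene Ibsp was higher by 4.38 and 4.11, and by 2.26 without HD28 replicates 1 and 3. Of 17 chemokines, 4 were higher and 4 lower in each fit, against 15.3% and 11.2% of all genes with all arrays (2 lower without Hepatocyte replicate 2 in either fit, or without HD28 replicates 1 and 3), with Cxcl12, the stromal niche chemokine, at 12.53, 12.66 and 12.48 against 9.41, 9.84 and 9.64.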

How the data were processed

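RNA extracted with Trizol was labelled as biotin cRNA from 5 µg and hybridised to an Affymetrix mouse array, per the labels' protocols. The deposited values are log2 intensities, summarised by the authors with RMA (robust multi-array average) per the submitters' processing notes, with the version and any filter not given in the sources used here. The log base was taken as 2 from the range of 1.32 to 14.15. RMA sets all arrays to 1 distribution, so a shift in total RNA cannot be seen, and the table holds no detection calls. Of 45101 probe sets, 64 are controls, 34945 had 1 gene symbol, 932 several and 9160 none. Each of the 18193 genes is represented by its brightest probe set, judged by the average of the 15 arrays, and 9010 genes had more than 1.

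Differences were tested with limma 3.58.1 (R 4.3.3; lmFit and eBayes) in 1 model over the groups of all 15 arrays, or 14 without HD28 replicate 3, which share 1 estimate of the spread. Called genes passed an adjusted p of 0.05 and a fold of 2. Intervals are 95%, and "inside 2-fold" means both ends within 1 log2 unit of 0. The script was tested on simulated data. The number of arrays limits the precision, with the median interval reaching 0.47 log2 units to either side (0.52 without HD28 replicate 3).

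Members and the 51 gene lists (885 genes measured of 969) were chosen with earlier results of these data known, so lists are described by counts and medians with no test of their own. Named genes were the 15 most changed each way, the 15 with the largest excess in HD28 replicate 3, up to 6 called genes each way and 4 of highest signal inside 2-fold per list, every DNA methylation, liver transcription factor, glucocorticoid and cell marker gene, and the 10 of highest signal inside 2-fold in both fits. Alternatives were other centrings, quantile normalisation, filters, thresholds, models and spike-in or replicate blocks, and leaving out each array.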

Additional observations from a re-analysis of the deposited data

How the results depend on the processing

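Counts are given with all arrays and then without HD28 replicate 3. Keeping only genes with 1 probe set gave 2094 changed genes (1026 higher, 1068 lower) and 2147 (1041 and 1106). Centring on housekeeping genes gave 3814 lower, and 1862 higher and 4247 lower. Removing dim genes left 5329 and 4549 with an interval inside 2-fold, since fewer genes were tested. With no limit on the fold, 8149 genes changed (4059 lower) and 7513 (3696 lower). Same-numbered HD28 and Hepatocyte arrays deviated with correlations of -0.002, -0.15 and 0.11, so the numbers were not taken to pair the samples. The replicate block gave 2799 higher and 2059 lower, and 2880 and 2075. The spike-in class as a block gave 2852 and 2075, and 2980 and 2180. On the arrays of low spike-in signal alone, chosen after seeing the data, 2674 were higher and 2047 lower with HD28 replicate 3 kept. Without replicate 3 this choice leaves 1 HD28 array, so its counts are not given. Leaving out 1 array gave 4514 to 4948 changed genes. Without HD28 replicate 3, leaving out 1 Hepatocyte array gave 4744 to 5010, and leaving out another HD28 array leaves only 1. Of 488 named genes, 0 reversed in either fit under median or housekeeping centring, the spike-in block, the low spike-in arrays or leaving out 1 array. Named genes are not reported for the other settings, such as other choices of probe set. Leaving out 1 array moved the difference of 8 of 350 called named genes, and of 19 of 360, by more than 1.5 times. Signal over background limits the sizes: 379 lower genes were dim in HD28 and 216 higher genes dim in hepatocytes.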
